A study of Mus musculus with 8 samples.

Results

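The genes described here are the cannabinoid receptor gene Cnr1 and 7 genes for enzymes that make or break down its ligands, namely Dagla, Daglb, Mgll, Faah, Napepld, Abhd6 and Abhd12. All non-control probes whose gene name in the scanner files is that of a member were taken, which gave 14 probes of 55681. Of these, 13 passed the filter, a signal well above background on 4 or more of the 8 arrays, and entered the test of 41385 probes. RNA came from medium spiny neurons (MSNs), which are the inhibitory output neurons of the striatum, sorted from males at 4 weeks of age. There were 4 arrays of R6/2;Scn4b-Venus mice and 4 arrays of WT;Scn4b-Venus mice. R6/2 mice carry exon 1 of human HTT with an expanded CAG repeat as a transgene, and are used as a model of Huntington's disease. Mice of both genotypes carry Scn4b-Venus, in which the fluorescent protein Venus reports the sodium channel subunit gene Scn4b. Cells were taken as Venus-positive and negative for propidium iodide, a dye that enters dead cells, and gave 4 to 20 ng of total RNA. The labels do not say whether an array holds 1 mouse or a pool, so the p-values measure the spread between these samples, which may in part be technical.

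The CB1 receptor, encoded by Cnr1, is a Gi/o-coupled receptor found mostly on axon terminals, where its activation lowers transmitter release. Its lipid ligands are 2-arachidonoylglycerol (2-AG) and anandamide. Neurons make 2-AG from diacylglycerol when postsynaptic Gq-coupled receptors or calcium entry drive it, and the lipid then acts backward across the synapse. In the striatum, MSNs carry CB1 on their own terminals and receive input from cortical terminals that carry it as well. Lower CB1 in the striatum is a long-known feature of Huntington's disease and of its mouse models.

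Levels are given as log2 of a probe's signal over the 75th percentile of its array, so that 0 is the level of that percentile and 1 unit is a doubling. A difference is R6/2 minus WT, with its standard error (SE) from limma and a p-value adjusted over all 41385 tested probes. Levels of different probes are not set against each other, since each probe binds with its own strength.

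The 75th percentile lay between 314 and 383 intensity units on R6/2 arrays and between 333 and 353 on WT arrays. Probes well above background made up 74.0% to 78.8% of all probes on R6/2 arrays and 50.1% to 76.2% on WT arrays. The lowest share, 50.1%, belonged to WT replicate 1, and differences of member probes that rest on that array are also given without it. Differences of other genes are given with all arrays. R6/2 replicate 4 was alone on its slide and scan day. All 22 MSN markers examined were well above background on all 8 arrays. Their summed level was 872 to 966 times the 75th percentile on R6/2 arrays and 1296 to 1489 times on WT arrays. Of markers of cortical glutamatergic neurons, whose terminals carry CB1, Neurod6 was well above background on no array, while Tbr1 and Emx1 were on all 8. Their differences were +0.35 for Tbr1 and +0.12 for Emx1 (limma adjusted p = 0.850 and 0.941). Summed interneuron markers were at 150.3 to 175 times in R6/2 and 170 to 190 times in WT, with 96.2% of the sum from 1 probe of Lhx6.

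For 4 of the 8 genes the array holds more than 1 probe, and these probes do not report the same part of the gene. Their sequences are shown because the results differ between probes of the same gene. Each line gives the last 30 of the 60 bases of a probe, on the strand of the transcript, with its position on mm9. The motif of a polyadenylation signal (AATAAA, with ATTAAA searched as well, on the probe's strand only) is in capitals. Whether it acts as a signal was not tested.
Cnr1 A_55_P2138326, transcript ENSMUST00000133462, plus strand, chr4:34022232-34022291: cttagtaggagcaaacatctaagccacaga
Cnr1 A_55_P1953753, transcript NM_007726, plus strand, chr4:34035526-34035585: ctttgtcagtaatctgtataatattttgta
Mgll A_55_P2063312, transcript NM_001166250, plus strand, chr6:88714636-88714695: ctggacatgctggtatttgcccatgaccat
Mgll A_55_P2063311, transcript NM_001166250, plus strand, chr6:88716266-88716325: ccagggttatccccgaggcgtttgctgtgg
Mgll A_55_P2114863, transcript NM_001166251, plus strand, chr6:88775976-88776035: cagagactgtgtggaaatatcctttgaatt
Mgll A_55_P2063316, transcript NM_001166251, plus strand, chr6:88778292-88778351: ctcaccgtAATAAAaaccacgtgcttttgg
Faah A_55_P2125059, transcript ENSMUST00000125761, minus strand, chr4:115641713-115641772: ctgtttgctgctgaccacatttgagttcct
Faah A_52_P223704, transcript NM_010173, minus strand, chr4:115669624-115669683: acacaaatgctataaagcagaagtccctgg
Abhd6 A_55_P2029366, transcript NM_025341, plus strand, chr14:8888116-8888175: gaagctgaactgaggctgttgccacagctt
Abhd6 A_55_P1984675, transcript NM_025341, plus strand, chr14:8889003-8889062: aactttagaaataggactAATAAAgcaata
The 2 Cnr1 probes start 13294 bases apart, and the 4 Mgll probes span 63656 bases from the first start to the last. The Faah probes start 27911 bases apart and the Abhd6 probes 887. Such a motif was present in 2 of the 14 member probes (14.3%), 1 in Mgll and 1 in Abhd6, against 13.7% of all non-control probes. Whether a probe lies in an exon of the coding part or in a UTR was not looked up, since no annotation of mm9 was used here.

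Cnr1 was the member with the largest difference relative to its error. Probe A_55_P1953753, the brighter of its 2 probes, read 1.93, 1.62, 2.22 and 1.76 in R6/2 replicates 1 to 4, against 2.95, 2.88, 3.27 and 3.17 in WT replicates 1 to 4. Every R6/2 array lay below every WT array, with a gap of 0.66 between the nearest arrays. As intensity, the probe read 1129 to 1719 units on R6/2 arrays and 2520 to 3211 units on WT arrays, well above the dim end of the scale in both. The mean level was 1.88 ± 0.26 in R6/2 and 3.07 ± 0.18 in WT (SD, n = 4 each), a difference of -1.18 (SE 0.21). The R6/2 level was thus 44.1% of the WT level, with a 95% interval of 31.7% to 61.4%. In limma the adjusted p was 0.395 (unadjusted 3.9e-04), so Cnr1 did not pass over all probes, although its p ranked 39 among 41385. In sorted cells measured in bulk, fewer cells of a type that carries Cnr1 and less Cnr1 RNA per cell cannot be told apart.

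Probe A_55_P2138326, which reports the Ensembl transcript, differed in the same direction at low signal. It read -3.77, -3.78, -3.78 and -3.15 in R6/2 replicates 1 to 4, against -1.23, -2.68, -2.0 and -2.82 in WT replicates 1 to 4. The groups did not overlap, but WT replicate 4 lay only 0.33 above R6/2 replicate 4, and the WT arrays were spread widely. The difference was -1.44 (SE 0.37, limma adjusted p = 0.552, unadjusted 0.0042). It was -1.12 without WT replicate 1, the highest array. With normexp background correction it was -0.68, where an added offset of 50 intensity units lessens differences of dim probes. At 23.0 to 43.1 intensity units in R6/2 and 48.4 to 151 in WT, the probe was dim, though well above background on all 8 arrays.

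**Figure D1:**
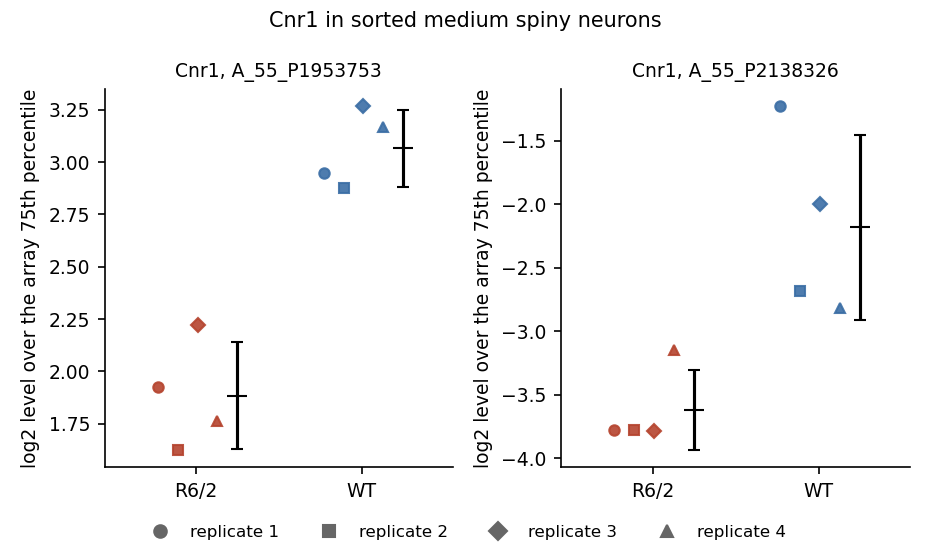
Log2 level over the array 75th percentile (vertical axis) of the 2 Cnr1 probes in 4 R6/2 arrays (red, left) and 4 WT arrays (blue, right), with the mean and SD as a black bar beside the points. The R6/2 arrays lie at 1.62 to 2.22 for A_55_P1953753, below the WT arrays at 2.88 to 3.27, and the groups are also apart for the dimmer A_55_P2138326.

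Of the 13 tested member probes, 0 passed the limma test at an adjusted p under 0.05, and 2, both of Cnr1, had an unadjusted p under 0.05. Over all tested probes 0.00242% passed, which is the 1 probe A_55_P2128060, and it belongs to no member. The authors' deposited table gave Cnr1 corrected p-values of 0.350 for the brighter and 0.800 for the dimmer probe. Both Cnr1 probes, and no other member probe, had all R6/2 arrays below all WT arrays, as did 2.26% of all tested probes. No member probe had all R6/2 arrays above all WT arrays, as 2.31% of all tested probes did. At an unadjusted p under 0.05, 3.05% of all tested probes were lower in R6/2. Of the 13 differences, 10 were negative and 3 positive, and their median was -0.27, while over all tested probes the median was +0.05 and 44.5% were negative.

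MSN markers were lower in R6/2 as well, so the level of Cnr1 was also taken relative to them on each array. All 22 markers were negative, and their median difference was -0.63, against +0.03 over all 26918 genes. In limma 0 of the 22 passed after adjustment, while 13 had an unadjusted p under 0.05, where 3.19% of genes were lower at that p. The markers' mean level was 4.44 ± 0.10 in R6/2 and 5.06 ± 0.09 in WT (SD, n = 4 each). Cnr1 minus that mean was -2.49, -2.83, -2.35 and -2.56 on R6/2 arrays 1 to 4, against -2.08, -2.11, -1.74 and -2.03 on WT arrays 1 to 4. The groups did not overlap. The difference of -0.57 gave a two-sided exact permutation p of 0.0286, the smallest that the 70 assignments of 4 and 4 arrays allow. Cnr1 and the marker list were chosen with earlier results of these data known. This p therefore describes the separation and is not an independent test. By the brightest probe of each gene, none of the 22 markers had a more negative difference than Cnr1, while the other tested probes of the phosphodiesterase gene Pde10a were at -1.23 and -1.19. Without WT replicate 3, the highest array, the difference was -0.48 with an exact permutation p of 0.0571. Scn4b, the gene whose reporter was used for the sort, was itself lower by a similar amount, with a difference of -1.15 (SE 0.29, limma adjusted p = 0.552) and no overlap between groups. The part of the sort in these differences was not tested.

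**Figure D2:**
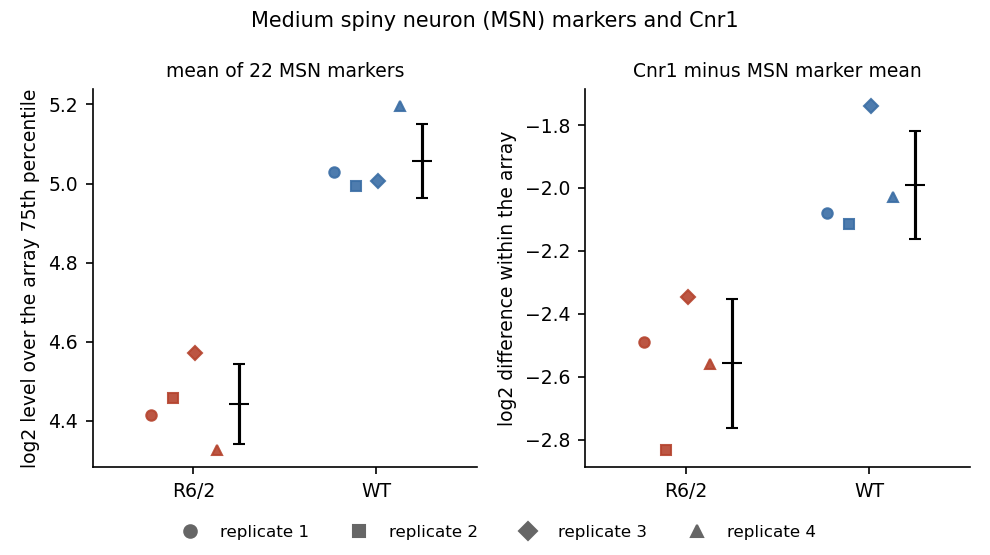
Left, the mean log2 level of 22 MSN markers on each array. Right, the log2 level of Cnr1 probe A_55_P1953753 minus that mean on the same array. R6/2 arrays are red and to the left, WT arrays blue and to the right, and black bars are the mean and SD of 4 arrays. Both quantities are lower on every R6/2 array than on any WT array, and the group means differ by -0.61 for the markers and by -0.57 for Cnr1 relative to them.

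The genes whose levels ran most like Cnr1 over the 8 arrays were Gsg1l (r = 0.992), an AMPA receptor auxiliary protein gene, Phactr1 (0.985), a regulator of actin and protein phosphatase 1, and Gabrd (0.981), the delta subunit of the GABA-A receptor. They were followed by Bcr (0.976), a regulator of small G proteins, and Penk (0.966), the enkephalin precursor of indirect pathway MSNs. Spearman's rho lay between 0.905 for Penk and 1.0 for Gsg1l. These are the highest of 17097 annotated genes compared. The 8 points share the difference between genotypes, and the arrays differ in their share of probes above background, so r is a description. The differences of the 5 genes were -1.04 for Gsg1l, -0.84 for Phactr1, -0.63 for Gabrd, -0.74 for Bcr and -0.74 for Penk, and none passed (limma adjusted p from 0.373 to 0.591).

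For the enzymes, the data gave no difference past the threshold for any of the 11 tested probes, and the 95% interval of each held 0. Of the 11, 8 had a negative difference. By the brightest probe of each gene, 5 of the 7 enzymes were negative and 2 positive, from -0.42 for Napepld to +0.57 for Abhd6, with a median of -0.26. The interval bounds of these 7 ranged from -1.26 for Napepld to +1.29 for Abhd6. The interval of the brighter Cnr1 probe was -1.66 to -0.70, and those of Napepld, Daglb, Mgll, Abhd12 and Dagla reached into it. Those of Faah and Abhd6 did not. This depended on the probe: the interval of the other Abhd6 probe, A_55_P1984675, did reach into it (-1.09 to +0.55). That of Mgll A_55_P2063311 did not (-0.52 to +4.67). No enzyme was tested against Cnr1.

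**Figure D3:**
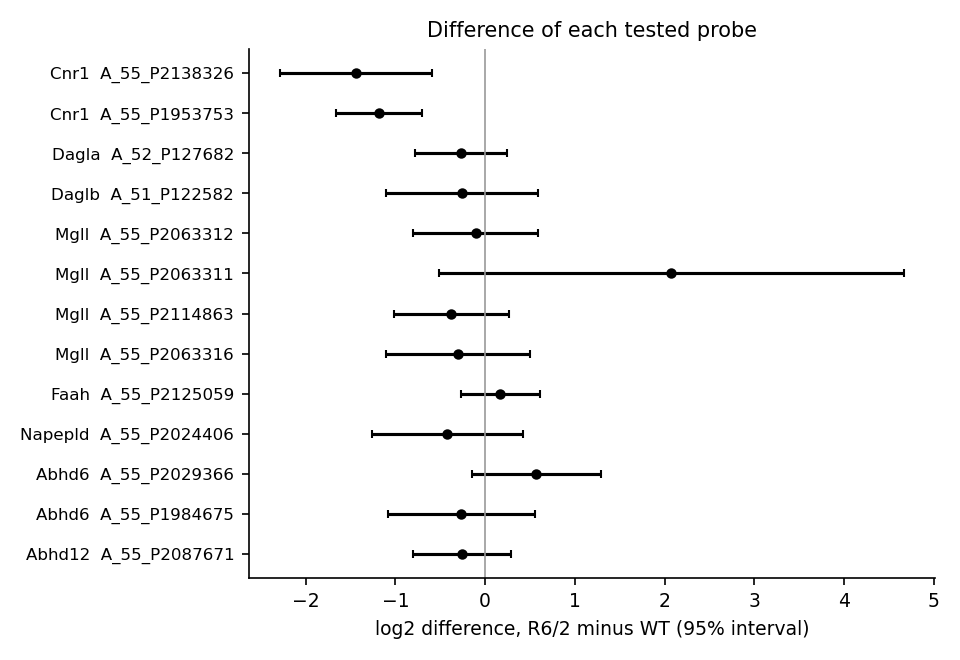
Log2 difference, R6/2 minus WT, of each of the 13 tested member probes (points) with its 95% interval from limma (bars). The intervals of the 2 Cnr1 probes lie below 0, at -1.66 to -0.70 for A_55_P1953753 and -2.29 to -0.59 for A_55_P2138326, and those of the 11 enzyme probes include 0.

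Synthesis of 2-AG is the task of the diacylglycerol lipases. Dagla encodes the alpha form, which makes most of the 2-AG of neurons and sits in dendritic spines opposite CB1-bearing terminals. Its probe A_52_P127682 (chr19:10319766-10319825 on mm9, minus strand, NM_198114) read 0.95, 0.67, 0.55 and 1.0 in R6/2, against 1.38, 1.07, 0.68 and 1.12 in WT. The groups overlapped through WT replicate 3, which lay below R6/2 replicates 1 and 4. The difference was -0.27 (SE 0.22, limma adjusted p = 0.834), and -0.16 without WT replicate 1, its highest array. With all arrays, the R6/2 level was 83.0% of WT with a 95% interval of 58.4% to 118%. Daglb encodes the beta form, known mainly from microglia and other immune cells. Its probe A_51_P122582 (chr5:144264931-144264990, plus strand, NM_144915) has 10 spots on each array, and the SD among them was 0.0899 to 0.197. It read -1.66, -2.31, -1.34 and -1.83 in R6/2, against -0.52, -1.93, -1.69 and -1.96 in WT. WT replicate 1 stood above all other arrays. The difference was -0.26 (SE 0.37, limma adjusted p = 0.913), and +0.075 without WT replicate 1.

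Breakdown of 2-AG falls mainly to monoacylglycerol lipase, encoded by Mgll, which acts in presynaptic terminals and in glia. Its 4 probes did not share 1 pattern. The most 3′ and brightest, A_55_P2063316, read 0.95, 0.37, 0.28 and 0.38 in R6/2, against 0.90, 1.71, 0.20 and 0.37 in WT. R6/2 replicates 2 to 4 lay close together, with replicate 1 above them, and WT replicate 2 was the highest array. The difference was -0.30 (SE 0.35, limma adjusted p = 0.888), and +0.0035 without WT replicate 2. Probe A_55_P2114863, 2316 bases upstream of it and of the same transcript, read -0.71, -1.18, -0.58 and -0.63 in R6/2, against -0.63, 0.30, -0.56 and -0.70 in WT. Here too WT replicate 2 was the highest of all arrays. The difference was -0.38 (SE 0.28, limma adjusted p = 0.813), and -0.14 without WT replicate 2. On WT replicate 2 the summed level of oligodendrocyte markers was 60.5 times the 75th percentile, while it was 6.46 to 15.1 times on R6/2 arrays and 7.42 to 20.6 times on the other WT arrays. The difference was negative for all 7 tested oligodendrocyte markers (median -0.87), and 0 passed in limma, with 0 at an unadjusted p under 0.05. The part of these cells in the Mgll levels was not tested.

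The 2 probes of Mgll near the 5′ end of the span, both of NM_001166250, differed from these and from each other. A_55_P2063312 read -0.49, -0.49, -0.74 and -0.72 in R6/2, against 0.38, -0.84, -0.66 and -0.91 in WT. Only WT replicate 1 stood apart, and the difference of -0.11 (SE 0.31, limma adjusted p = 0.960) became +0.19 without it. A_55_P2063311, 1630 bases further on, read -2.94, 0.07, -1.18 and 0.69 in R6/2, against -4.98, -4.53, -1.29 and -0.85 in WT. It was well above background on 4 of 4 R6/2 arrays and 3 of 4 WT arrays, and it varied by over 3 units within each genotype. Its difference of +2.08 (SE 1.13, limma adjusted p = 0.755) was the largest in size of the members and the least precise, with a 95% interval of -0.52 to +4.67. With normexp it was +1.18, and without WT replicate 1 it was +1.39. The mean of the 4 probes gave +0.32, opposite in sign to the brightest probe. A_55_P2063311 was the only Mgll probe with a positive difference, so the sign of that mean comes from it. It was dim on WT replicates 1 and 2, at 11.2 and 14.8 intensity units. With probes in both directions, no direction can be given for Mgll.

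Abhd6 and Abhd12 encode serine hydrolases that break down a smaller part of 2-AG, Abhd6 at the postsynaptic membrane, and Abhd12 is known also for cleaving lysophosphatidylserine. Abhd6 probe A_55_P2029366 read -0.23, 0.14, -0.15 and -0.35 in R6/2, against 0.10, -0.62, -1.18 and -1.18 in WT. Of the WT arrays, 3 lay below all R6/2 arrays, while WT replicate 1 lay above 3 of the 4. The difference was +0.57 (SE 0.31, limma adjusted p = 0.758). It was +0.84 without WT replicate 1, at an adjusted p of 0.606, where the range over its alternatives was 0.547 to 0.930. The other Abhd6 probe, A_55_P1984675, lies 887 bases further on, holds the AATAAA motif shown above, and is of the same transcript. It read -1.90, -1.11, -2.26 and -1.73 in R6/2, against -1.50, -0.98, -1.14 and -2.31 in WT, with full overlap. Its difference of -0.27 (SE 0.36, limma adjusted p = 0.904) had the opposite sign, at -0.54 to -0.098 with single arrays left out, and the mean of both probes gave +0.15. Abhd12 probe A_55_P2087671 (chr2:150660016-150660075, minus strand, NM_024465) read -0.03, -0.91, -0.29 and -0.50 in R6/2, against -0.34, -0.23, -0.23 and 0.10 in WT. The highest and the lowest R6/2 arrays enclosed all but 1 of the WT arrays. The difference was -0.26 (SE 0.24, limma adjusted p = 0.854), and -0.099 without R6/2 replicate 2.

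**Figure D4:**
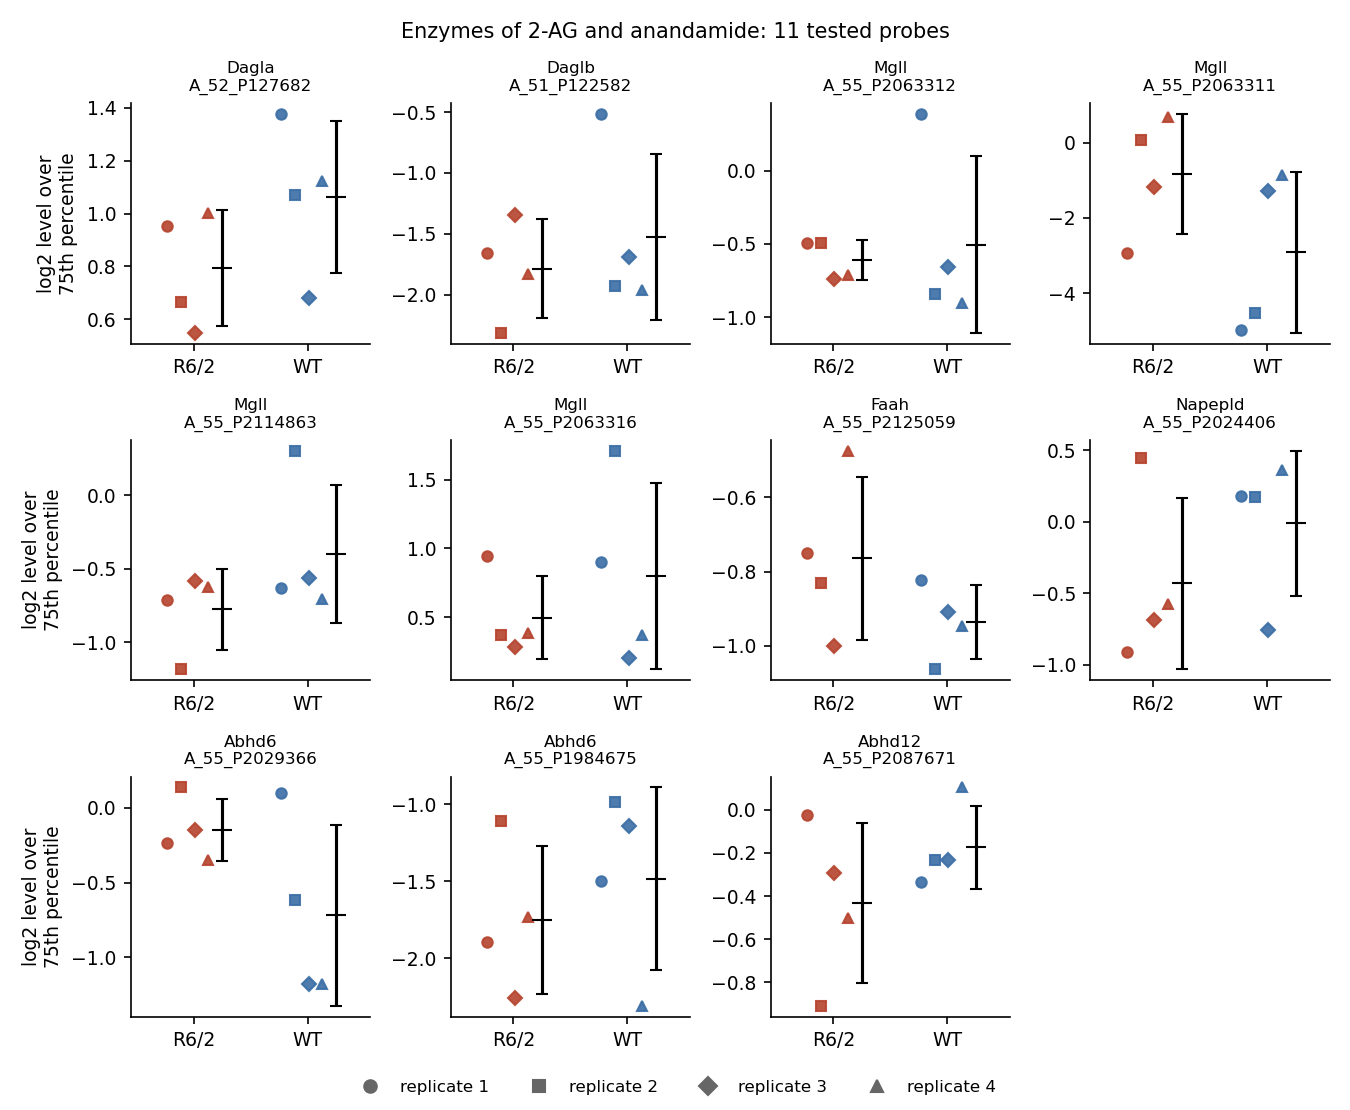
Log2 level over the array 75th percentile (vertical axes, scaled separately) of the 11 tested enzyme probes in 4 R6/2 arrays (red, left) and 4 WT arrays (blue, right), with marker shapes for replicate numbers and black bars for the mean and SD. The genotypes overlap in every panel, WT replicate 1 is the highest array for Daglb and for Mgll A_55_P2063312, and WT replicate 2 is the highest for Mgll A_55_P2114863 and A_55_P2063316.

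Anandamide and other N-acylethanolamines are released by the phospholipase D encoded by Napepld and hydrolysed by fatty acid amide hydrolase, encoded by Faah. Napepld probe A_55_P2024406 (chr5:21168862-21168921, minus strand, NM_178728) read -0.91, 0.44, -0.68 and -0.57 in R6/2, against 0.18, 0.17, -0.76 and 0.36 in WT. R6/2 replicate 2 was the highest array of all and WT replicate 3 stood among the low R6/2 arrays, so each genotype had 1 array on the other's side. The difference was -0.42 (SE 0.37, limma adjusted p = 0.842), and it ranged from -0.71 to -0.26 when single arrays were left out, with -0.71 without R6/2 replicate 2. Faah probe A_55_P2125059, of the Ensembl transcript, read -0.75, -0.83, -1.0 and -0.48 in R6/2, against -0.82, -1.06, -0.91 and -0.95 in WT. The highest and the lowest of these 8 values were 0.587 apart. The difference was +0.17 (SE 0.19, limma adjusted p = 0.883), and +0.075 without R6/2 replicate 4. With all arrays, the R6/2 level was 113% of WT with a 95% interval of 83.2% to 152%. The other Faah probe, A_52_P223704, of the RefSeq transcript NM_010173, was not well above background on any of the 8 arrays and was not tested. No fold can be given for it, and the Faah level here rests on the Ensembl probe.

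Other genes of endocannabinoid signalling were read by their brightest tested probe in 5 lists of 50 genes, of which 41 were tested. In limma 0 of the 41 passed, 18 had a negative and 23 a positive difference, and the median was +0.04. At an unadjusted p under 0.05, 2 were lower (4.88%, against 3.19% of all genes) and 3 higher (7.32%, against 3.4% of all genes).

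Of the genes that supply the diacylglycerol for 2-AG, 8 of 11 were negative (median -0.31), and 0 passed in limma. Plcg1, a phospholipase C, read 0.90, 1.46, 1.73 and 1.42 in R6/2, against 1.97, 2.03, 2.11 and 2.14 in WT. Grm5, the Gq-coupled glutamate receptor mGluR5 of MSN dendrites, read 5.90, 5.96, 6.03 and 5.73 in R6/2, against 6.22, 6.43, 6.34 and 6.55 in WT. For both genes every R6/2 array lay below every WT array, which held for 2.57% of all genes. The differences were -0.68 (SE 0.22, limma adjusted p = 0.634) for Plcg1 and -0.48 (SE 0.18, limma adjusted p = 0.680) for Grm5, while other tested probes were at -0.21 and -0.17 for Plcg1 and ranged from -0.66 to -0.079 for Grm5. On the positive side, the smallest p-values were those of the muscarinic receptor Chrm3 (+0.98, limma adjusted p = 0.749, well above background on 4 R6/2 and 2 WT arrays) and of the phospholipase C Plcb4 (+1.34, adjusted p = 0.805, other probe +0.86). Plcb4 read -4.78 on WT replicate 1, against -0.24, -1.70 and -0.80 on WT replicates 2 to 4, so its size rests largely on that array.

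Among receptors and their partners, 2 of the 8 tested genes were negative and 6 positive, and the median was +0.18. Cnrip1 encodes a protein that binds the tail of CB1. It read 3.97, 3.59, 4.05 and 3.94 in R6/2, against 2.93, 3.66, 3.19 and 3.53 in WT, and only R6/2 replicate 2 lay below the highest WT array. The difference was +0.56 (SE 0.23, limma adjusted p = 0.699), of the opposite sign to Cnr1. Sgip1, whose protein keeps CB1 at the cell surface, was at -0.24 (limma adjusted p = 0.856), with its other tested probes at -0.83 and -0.15. The arrestins that bind active receptors were at -0.16 for Arrb1 (adjusted p = 0.883) and +0.68 for Arrb2 (adjusted p = 0.765). Among genes of Gi/o signalling, 3 of 9 were negative and 6 positive, with a median of +0.19. Kcnj3, a channel subunit opened by Gi/o proteins, was at +1.26 (limma adjusted p = 0.679), but its other tested probe was at +0.12. The G protein alpha subunits Gnai2 (-0.77, adjusted p = 0.731), Gnao1 (-0.44, adjusted p = 0.755) and Gnai3 (+0.77, adjusted p = 0.805) went in both directions, and the other tested probe of Gnao1 was at -1.11. Gnai3 read -2.05 on WT replicate 2, against 0.18, -0.06 and 0.78 on WT replicates 1, 3 and 4, so its size rests largely on that array.

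For other enzymes of N-acylethanolamine synthesis, 3 of 6 tested genes were negative and 3 positive, with a median of -0.05. The phosphodiesterases Gde1 (-0.31, limma adjusted p = 0.811) and Gdpd1 (+0.37, adjusted p = 0.795) and the acyltransferase Plaat1 (+0.24, adjusted p = 0.908) did not pass. The phosphatase Inpp5d was at -1.89 (adjusted p = 0.727), with 1 R6/2 and 3 WT arrays well above background, so its size rests on values near background. Among other breakdown enzymes and carriers, 2 of 7 were negative and 5 positive, with a median of +0.21. Fabp7, a fatty acid binding protein known from radial glia and astrocytes, read 2.40, 0.95, 0.64 and 0.44 in R6/2, against -0.83, -0.49, -0.43 and -1.10 in WT. All R6/2 arrays lay above all WT arrays, which held for 2.16% of all genes, and the difference was +1.82 (SE 0.43, limma adjusted p = 0.549). Summed astrocyte markers ranged from 1.35 to 4.04 times the 75th percentile on R6/2 arrays and from 1.98 to 3.89 times on WT arrays, with 2 of 7 tested markers negative and 5 positive. The sum was 4.04 on R6/2 replicate 1, which had the highest Fabp7, and 3.89 on WT replicate 2, where Fabp7 read -0.49. It was 1.47 and 1.35 on R6/2 replicates 2 and 4, where Fabp7 read 0.95 and 0.44. The part of astrocytes in the Fabp7 level was not tested. Ptgs2, a cyclooxygenase that oxidises 2-AG, was at +1.22 (adjusted p = 0.786) and well above background on 1 of 4 WT arrays. The carrier Fabp5 was at -0.07 (SE 0.31). The esterase Ces1d was at -0.14 (SE 0.47), but well above background on only 2 R6/2 and 2 WT arrays, so its value rests on signal near background.

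**Figure D5:**
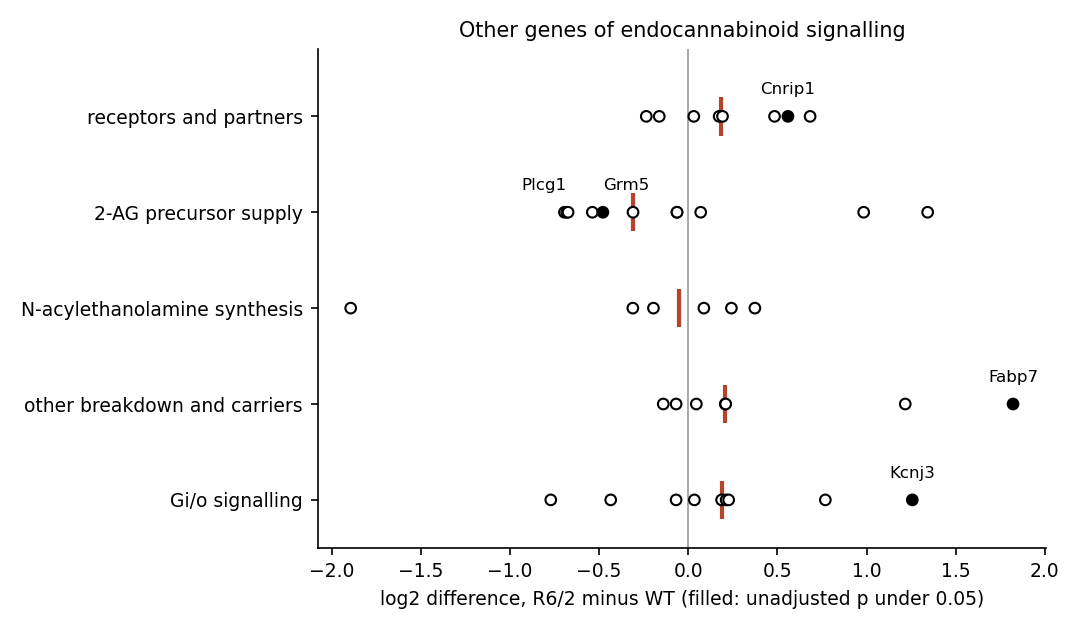
Log2 difference, R6/2 minus WT, of the 41 tested genes in 5 lists of endocannabinoid signalling, with 1 point per gene and the list median as a red tick. Filled points have an unadjusted p under 0.05 and are named, and none passed after adjustment. The 2-AG precursor list has its median at -0.31, with Plcg1 and Grm5 on the negative side, and Fabp7 at +1.82 is the point farthest to the right.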

How the data were processed

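Per the file headers, each of the 8 deposited scanner files was written by Agilent's Feature Extraction software, version 10.7.3.1, and gives background-subtracted 1-colour intensity values and probe positions on mm9. The deposited whole-series table holds the authors' log2 values, which differ from those used here by a constant per array. It also holds the p-values of an unpaired t-test with Benjamini-Hochberg correction and absolute fold changes, per the file headers.

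The processed intensity was taken to log2, the array's 75th percentile over non-control probes was subtracted, outlier spots were left out and spots of a probe were averaged. A garbled line, 1 in all, was dropped from R6/2 replicate 3. Probes well above background on at least 4 of 8 arrays were tested in limma (lmFit with eBayes, version 3.58.1, under R 4.3.3, two-sided, Benjamini-Hochberg over all tested probes, threshold 0.05), and checked on simulated data. Intervals are limma's at 95%. A gene's brightest tested probe stands for it. Single values were compared by exact permutation over all assignments of the arrays, and Spearman's rho was taken with scipy 1.17.1. The members and lists were chosen with earlier results of these data known. All members are named, as are up to 2 genes per direction of each pathway list with the smallest p, and the 5 genes most like Cnr1. Gene names are those of the array design, brought up to date by accession or symbol for list genes. The same replicate number in both genotypes did not pair arrays (correlations of same-numbered deviations from -0.04 to 0.02). The number of arrays limits the precision.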

Additional observations from a re-analysis of the deposited data

Results flagged for a closer look

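Of 28 groups of 4 arrays (14 member probes in each genotype), 3 held an array far from the other 3, where chance gives about 1 in 20. For Cnr1 A_55_P2138326, R6/2 replicate 4 read -3.15, while the other R6/2 arrays lay between -3.78 and -3.77. For Mgll A_55_P2063316, R6/2 replicate 1 read 0.95, against 0.28 to 0.38 on the other R6/2 arrays. For Mgll A_55_P2114863, WT replicate 2 read 0.30, against -0.70 to -0.56 on the other WT arrays, and it is also the array with the highest sum of oligodendrocyte markers.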

How the results depend on the processing

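Of 223 values of member probes under the alternatives, 219 kept their direction and none passed the limma test. The 4 that turned were +0.075 for Daglb and +0.19 for Mgll A_55_P2063312 without WT replicate 1, and, for Mgll A_55_P2063316, +0.0035 without WT replicate 2 and +0.32 when all probes of Mgll were averaged. With single arrays left out, the 3 probes ranged from -0.41 to 0.075, from -0.24 to 0.19 and from -0.50 to 0.0035. The cause was not tested. Cnr1 A_55_P1953753 ranged from -1.31 to -1.06 over 18 alternatives (adjusted p from 0.166 to 0.696), and A_55_P2138326 from -1.65 to -0.68 over 16 (adjusted p from 0.369 to 0.816). Cnr1 minus the MSN marker mean ranged from -0.64 to -0.47 with single arrays left out. It was -0.57 with the replicate block, where the exact sign-flip p of 0.125 is the smallest that 4 pairs allow.

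Over all probes, 1 passed. The count was 8 with normexp, 8 with array weights, 7 for probes above background on all 8 arrays, 5 when the probes of each gene were averaged and 2 with quantile normalization. It was 0 with slide and scan date as a block (the same as leaving out R6/2 replicate 4), 0 with the replicate block and 0 with the methods' t-test, where 2410, 2756 and 2796 probes had an unadjusted p under 0.05, and 0 to 3 with single arrays left out. It was 3 without WT replicate 1. Numbers shared by replicates are not a pairing here, and the block changed no member's call. Dim probes limit the second Cnr1, the RefSeq Faah and the A_55_P2063311 Mgll values.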
